A study of Tetranychus urticae with 24 samples.

Results

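In the two-spotted spider mite *Tetranychus urticae*, 65 of 19087 counted genes were chosen for higher means with diethyl maleate (DEM) and cyclosporin A (CsA). The comparison was with mites sprayed with the formulation alone (FORM). Genes with the largest drops under piperonyl butoxide (PBO) were set aside, but 49 of the 65 still had a PBO mean below the FORM mean. The members were chosen by the values of these libraries themselves. The values are CPM, the reads of a gene scaled to a common library total, and a ratio is the log2 of the quotient of 2 group means after 0.5 CPM was added to each. A gene was a member when its FORM mean was at least 1 CPM, its DEM and CsA ratios to FORM were both at least 0.5, and its PBO ratio was above -0.5. The FORM minimum left 11525 genes, of which 115 met the DEM and CsA limits. The PBO limit took away 45 of these, and 5 more were among 11 genes that the rule leaves out by name. The rule read the 16 FORM, PBO, DEM and CsA libraries, so differences among these groups are descriptions of the members, and calls given for them test nothing about the choice. The 8 unsprayed (CON) and DEF libraries were not used by the rule.

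The RNA came from whole adult females. All belonged to JP-R, a strain that resists the acaricides cyenopyrafen and cyflumetofen. It lived on bean plants sprayed with cyenopyrafen until the week before collection. CON mites received no spray. FORM mites received N,N-dimethylformamide and emulsifier W in water, and this mixture also carried PBO at 1000 ppm, S,S,S-tributyl phosphorotrithioate (DEF) at 500 ppm, DEM at 2000 ppm or CsA at 50 ppm. Mites alive after 24 h were collected, and each group had 4 biological replicates, each a pool of about 100 females. All groups therefore shared a resistant background, and sprayed groups shared the solvent.

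Synergists are compounds applied with a pesticide to block the systems that remove it. PBO inhibits cytochrome P450 monooxygenases, DEF inhibits esterases, and DEM depletes glutathione, the substrate of glutathione S-transferases. In vertebrates CsA inhibits ABC transporters of the P-glycoprotein type and, bound to cyclophilin, also the phosphatase calcineurin. The known targets of DEM and CsA thus differ. The study describes the action of CsA on arthropod ABC transporters as less well known than that in vertebrates. Only 15 of the 65 members carry a description. None of these is described as a P450, a glutathione S-transferase, an esterase, a UDP-glycosyltransferase or an ABC transporter. Whether the 50 members with no description include such genes is not known here.

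The libraries held between 13824851 and 18198286 counts, so that 1 CPM stands for about 14 to 18 reads. Most members were weakly expressed. Their median FORM mean was 3.56 CPM, against 30.4 CPM over the 11525 genes, and 41 of the 65 lay under 5 CPM, against 21.6% of the 11525. The median coefficient of variation of the members was 19.03% in FORM and 35.3% in CsA, against 7.78% and 9.87% over all 11525 genes. In RNA of whole mites, fewer cells of a type and less RNA per cell cannot be told apart. Summed CPM of 5 germline and yolk genes lay between 1702 and 1829 in DEM, between 1725 and 2125 in CsA and between 1813 and 2060 in FORM, with none of the 5 at 0. For 7 neuropeptide and hormone genes the median sums were 158 in DEM and 159 in CsA and 178 in FORM. For 18 cuticle and matrix genes the medians were 255 in DEM, 288 in CsA and 243 in FORM, and the highest single libraries 394, 312 and 295. For 14 silk and small secreted genes the medians were 936 in DEM, 1231 in CsA and 1033 in FORM. The part of tissue composition in the members' levels was not tested. By the median over the members, replicate 4 of CsA was the lowest and replicate 1 of DEM the highest library of its group. Library values are printed for the main members so that both can be seen.

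**Figure D1:**
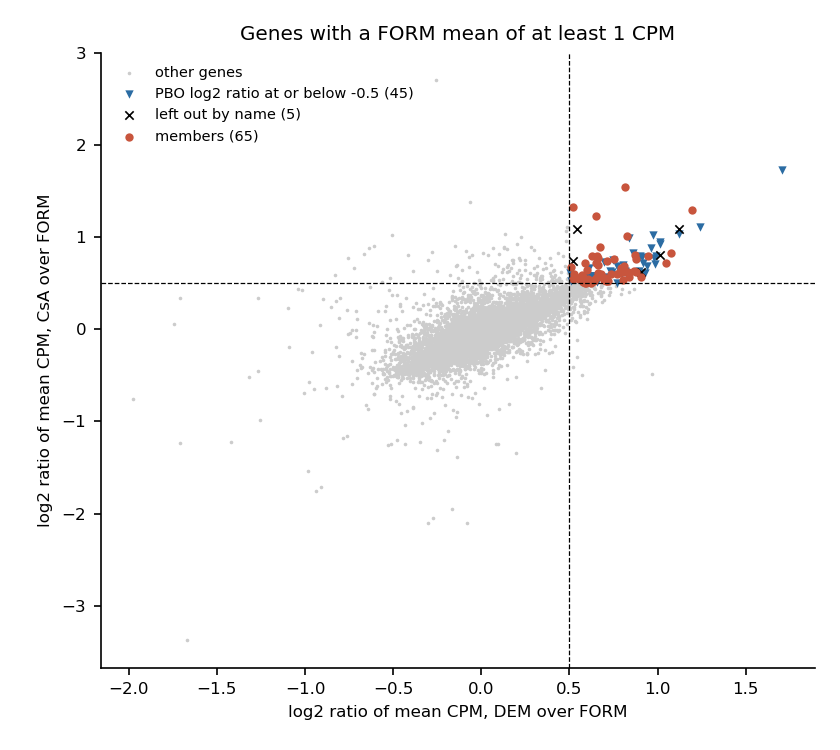
Log2 ratio of the mean CPM in DEM over FORM (x axis) and in CsA over FORM (y axis) for 11525 genes, with dashed lines at 0.5. The 65 members (circles) fill the upper right corner together with 45 genes with a PBO ratio at or below -0.5 (triangles) and 5 genes left out by name (crosses), and most members lie close to the limits.

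The members' median ratio was 0.66 with DEM, from 0.51 to 1.20, and 0.59 with CsA, from 0.50 to 1.55. Over the 11525 genes the medians were -0.01 and -0.03. The DEM ratio was the larger of the pair in 44 of 65 members and in 67.4% of all genes, and the pair lay within 0.25 of each other in 56 members and in 91.0% of all genes. Without DEM replicate 1 the members' median DEM ratio was 0.60, from -0.48 to 1.17, and without CsA replicate 4 their median CsA ratio was 0.76, from -0.56 to 1.69. Many members sat near a limit. For DEM, tetur30g00090 was just inside at 0.51 and tetur20g03260 just outside at 0.4967. For CsA, tetur25g01780 was just inside at 0.5004 and tetur07g06090 just outside at 0.4996. For PBO, tetur30g01510 was just inside at -0.496 and tetur01g09040 just outside at -0.508. For the FORM level, tetur03g02350 was just inside at 1.02 CPM and tetur11g05590 just outside at 0.997 CPM.

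Every DEM library lay above every FORM library in 48 of the 65 members, while this held for 11.4% of all genes. In CsA the same was true of 7 members, against 2.24% of all genes. Without replicate 4 of CsA the number was 49, against 11.8%. The rule used these libraries, so nothing is read from these counts. The same holds for edgeR's quasi-likelihood test, in which a gene was called at a Benjamini-Hochberg adjusted p under 0.05 and a fold change of at least 1.5. At an unadjusted p under 0.05 there were 57 members for DEM and 61 for CsA, against 28.5% and 24.9% of genes. By the call 39 members were higher in DEM than in FORM, with 1.69% of 12736 tested genes called higher and 2.21% called in either direction, and 16 members were higher in CsA, with 0.612% called higher. Without replicate 1 of DEM 15 members were called, with 0.951% of genes called in either direction, and without replicate 4 of CsA 55 members were called, with 4%. The FORM libraries weighed on these counts too. Leaving out replicate 1 or replicate 3 of FORM gave 21 or 6 members called in DEM, with 1.14% and 0.692% of genes called in either direction. Leaving out replicate 1, 2 or 3 of FORM gave 3, 4 or 2 members called in CsA, with 0.6%, 0.639% and 0.537% of genes. Leaving out replicate 1, 2 or 3 of CsA gave 2, 3 or 5 members called in CsA, with 0.514%, 0.545% and 0.708% of genes. The calls over all genes thus dropped in the same settings.

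For each library, the median over the members of the log2 ratio to the FORM mean was taken as a summary. It was 0.92, 0.60, 0.65 and 0.49 in DEM replicates 1 to 4. It was 0.91, 0.67, 0.74 and -0.04 in CsA replicates 1 to 4. DEM replicate 1 was the highest library, and CsA replicate 4 lay among the controls. In FORM the 4 values were -0.14, 0.01, -0.13 and 0.15. In CON they were 0.21, 0.16, 0.10 and 0.08. The CON libraries thus lay within or slightly above the FORM range. In PBO the 4 values were -0.22, -0.21, -0.20 and -0.27, below every FORM library. In DEF they were 0.05, -0.15, 0.12 and 0.36, spread across the range of both controls and past it.

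CsA replicate 4 was the lowest of the CsA libraries for 56 of the 65 members, and for 33.1% of all genes. It was at least 1.5 times lower than the mean of the other 3 CsA libraries in 49 members (75.4%), a difference seen in 6.84% of all genes. In 36 of 65 members (55.4%) it lay at or below the FORM mean, and so it did in 66.0% of all genes. Its total of 15953098 counts and its most abundant gene, at 6.10% of counts, lay within the range of the other libraries, while its 14794 genes with a count were the lowest number of the 24 libraries, which reached 15159. DEM replicate 1 had the largest share of counts in 1 gene, 7.69%, and a median over all 11525 genes of -0.12, so that the members stood above FORM there while most genes stood slightly below it. The part of these library properties in the members' levels was not tested.

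Membership moved with these libraries. Without CsA replicate 4 the rule gave 135 genes, which held 64 of the 65 members. Without CsA replicate 1 it gave 33 genes, 31 of them members. Without DEM replicate 1 it gave 49 genes, 47 of them members, and without FORM replicate 4 it gave 129 genes, 56 of them members. With DEM replicate 1 and CsA replicate 4 both left out, a setting chosen after seeing the data, 111 genes met the rule and 46 of them were members. Of the 65, 5 met the rule whichever of the 16 libraries was left out: tetur05g00160, tetur13g01920, tetur18g00930, tetur20g01480 and tetur238g00010.

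**Figure D2:**
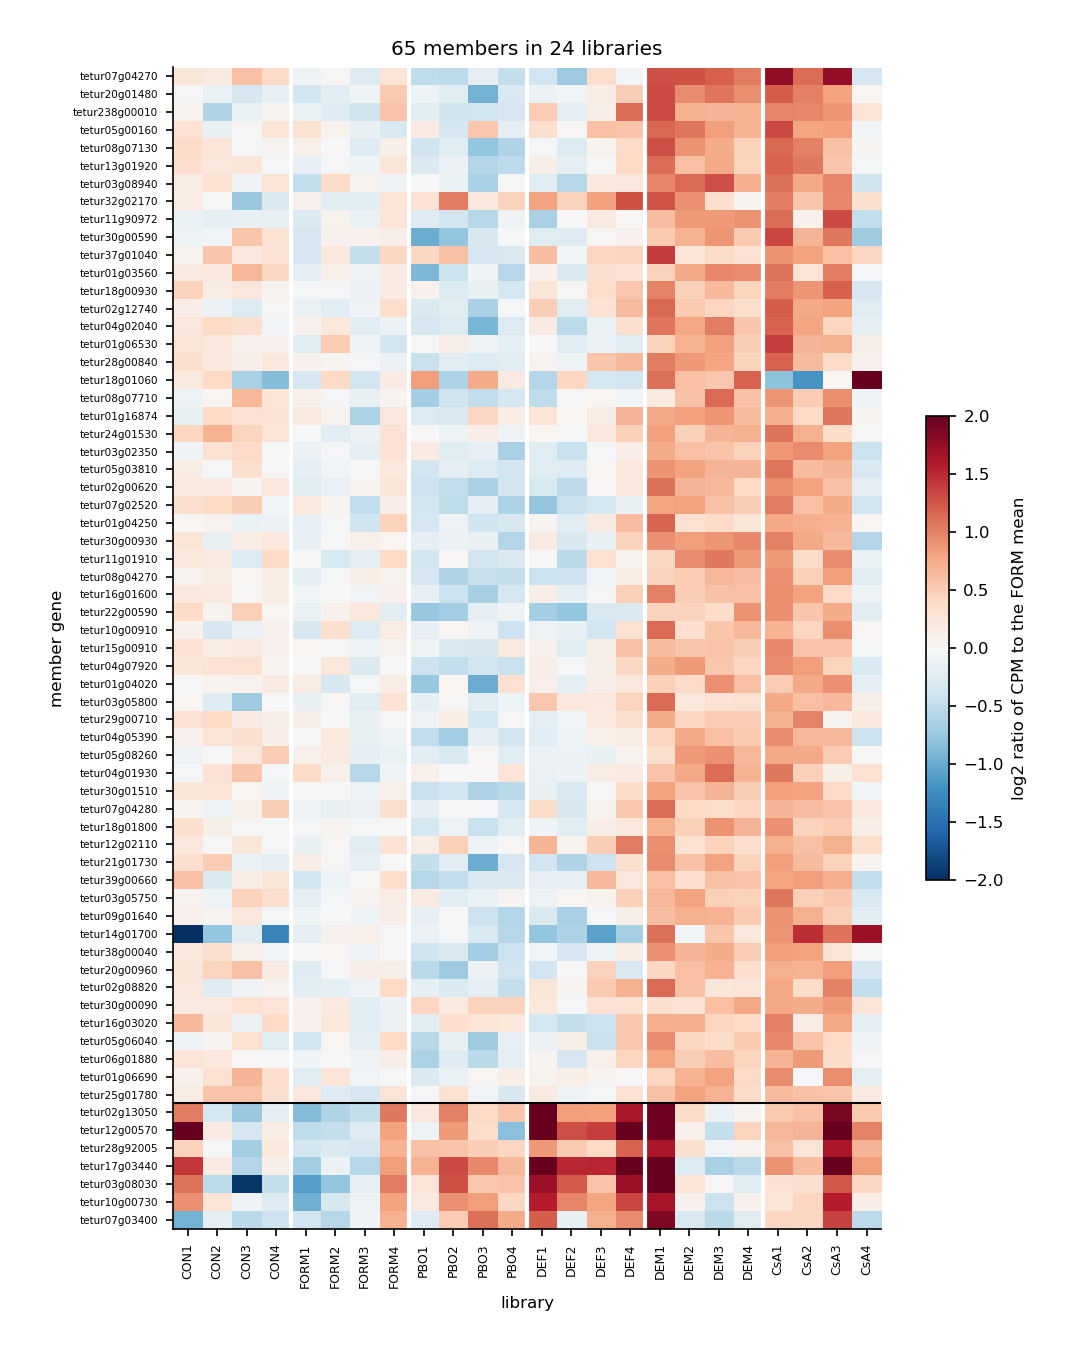
Log2 ratio of CPM to the FORM mean for the 65 members (rows) in the 24 libraries (columns, named by group and replicate), with colours held at -2 and 2 for values beyond these. Rows are ordered by the smaller of the DEM and CsA ratios, and the 7 members under the black line had high values in FORM4, DEM1 and CsA3. CsA4 is pale where CsA1 to CsA3 are red in most rows.

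Gene descriptions were read from the study's tables of responding genes and so are not independent of these libraries. They covered 15 of the 65 members, and the other 50 carried only an identifier. The 15 described members fell into regulatory genes, a muscle and a silk protein, 1 protein known by its fold, 1 metabolic enzyme and genes whose role is not known here.

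Among regulatory genes, tetur38g00040 is similar to the E1A-binding protein p400, in human an ATPase that remodels chromatin and belongs to a histone acetyltransferase complex. It measured 57.6, 58.5, 53.8 and 58.3 CPM in FORM. With DEM it measured 108, 92.0, 95.7 and 81.0 CPM, all above FORM. With CsA it measured 103, 100.1, 68.2 and 57.2 CPM, so that replicate 4 fell within the FORM range. Its ratios were 0.72 with DEM and 0.52 with CsA.

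tetur18g01800 is annotated as still life, in *Drosophila* a guanine nucleotide exchange factor that activates Rac at synapses. Its FORM libraries were close together, with 4.20, 4.49, 4.19 and 4.33 CPM. DEM gave 7.33, 6.22, 8.46 and 7.15 CPM. CsA gave 8.55, 6.10, 6.31 and 4.76 CPM. Every DEM and every CsA library stood above every FORM library, CsA replicate 4 by the smallest margin.

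tetur20g01480 is described as a protein that interacts with a ubiquitin conjugating enzyme, the class of enzymes that carry ubiquitin to its ligases. FORM libraries measured 1.42, 1.63, 1.85 and 3.11 CPM. DEM libraries measured 5.71, 4.34, 4.78 and 4.29 CPM. CsA libraries measured 5.28, 4.53, 3.88 and 2.07 CPM. The DEM libraries did not overlap FORM, whereas CsA replicate 4 lay below the highest FORM library. The ratios of 1.08 and 0.83 were among the largest of the members, and this gene met the rule whichever library was left out.

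The other signalling members carry domains that bind other molecules. tetur03g08940 holds a pleckstrin-homology or phosphotyrosine-binding domain, folds that recognise membrane lipids or phosphorylated tyrosines, and its FORM values were 0.681, 1.63, 1.24 and 1.08 CPM. DEM brought 2.76, 3.14, 3.57 and 2.23 CPM. CsA brought 3.07, 2.30, 2.77 and 0.752 CPM, with replicate 4 in the FORM range. tetur30g00930 holds a Src homology 3 region, a module that binds proline-rich stretches. It measured between 3.12 and 3.84 CPM in FORM and between 6.75 and 7.38 CPM in DEM. CsA replicates 1 to 3 measured 7.61, 6.37 and 5.82 CPM and replicate 4 measured 2.19 CPM, under every FORM library.

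tetur05g03810 resembles the muscle M-line assembly protein unc-89, in *Caenorhabditis elegans* a giant protein that organises the sarcomere. It measured 24.0, 26.6, 27.7 and 32.2 CPM in FORM. DEM gave 52.0, 48.6, 44.5 and 44.4 CPM, and CsA gave 58.2, 42.9, 44.3 and 22.3 CPM. All DEM libraries and CsA replicates 1 to 3 were above FORM, and CsA replicate 4 was below it. The CsA ratio was 0.59 with all libraries and 0.80 without replicate 4.

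Silk was represented by 1 member. tetur01g16874, a fibroin, the structural protein of silk that spider mites spin into webs, measured 5.39, 4.90, 2.81 and 5.48 CPM in FORM and 8.23, 8.62, 8.96 and 7.49 CPM in DEM. In CsA it measured 8.01, 6.30, 10.3 and 4.83 CPM, again with replicate 4 inside the FORM range.

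tetur14g01700, described as having an immunoglobulin E-set fold, had a CsA level above its DEM level. CON libraries measured 2.01, 5.57, 8.47 and 3.66 CPM. FORM libraries measured 8.68, 10.5, 10.57 and 9.67 CPM. DEM libraries measured 21.7, 9.49, 14.7 and 11.4 CPM, with replicate 2 inside the FORM range. CsA libraries measured 18.6, 28.3, 21.5 and 33.5 CPM, all above FORM, and here replicate 4 was the highest. Its CsA ratio of 1.33 was well above its DEM ratio of 0.52, its ratio of CON to FORM was -0.93, the lowest of the members, and its ratio of DEF to FORM was -0.77. Without DEM replicate 1 its DEM ratio was 0.26.

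The 1 described metabolic enzyme was tetur18g01060, a mitochondrial malate dehydrogenase, which oxidises malate to oxaloacetate in the citric acid cycle. Its CsA mean rested on 1 library, with 3.01, 2.23, 5.89 and 25.1 CPM in replicates 1 to 4. FORM libraries measured 4.42, 7.71, 4.25 and 6.42 CPM. DEM libraries measured 12.7, 8.89, 8.46 and 13.6 CPM, above every FORM library. Without CsA replicate 4 its CsA ratio changed from 0.62 to -0.56, and it was the only member for which that library was at least 1.5 times higher than the mean of the others, as it was in 0.564% of all genes.

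The other 6 described members are not given a role here. tetur07g04270, with a domain of unknown function (DUF726), had the largest smaller ratio of the members, 1.20 with DEM and 1.29 with CsA. FORM libraries measured 6.07, 6.54, 5.28 and 7.91 CPM. DEM libraries measured 16.4, 16.3, 15.3 and 13.6 CPM. CsA libraries measured 23.4, 14.6, 22.9 and 5.01 CPM. DEM and CsA replicates 1 to 3 were well separated from FORM, and CsA replicate 4 was below all 4 FORM libraries, so that the CsA ratio without it was 1.58, and the DEM ratio without replicate 1 was 1.17. tetur13g01920, similar to a fragile site-associated protein, measured between 10.5 and 14.1 CPM in FORM, between 16.2 and 26.3 CPM in DEM, and 27.4, 25.2, 17.6 and 11.6 CPM in CsA. tetur28g00840, named after dentin sialophosphoprotein, measured 2.10 to 2.495 CPM in FORM, 3.37 to 5.29 CPM in DEM and 2.51 to 5.88 CPM in CsA, with no overlap with FORM in either group. The hypothetical proteins tetur04g02040, tetur05g00160 (described as GrBNV_gp28) and tetur11g90972 had DEM ratios of 0.87, 0.95 and 0.81 and CsA ratios of 0.63, 0.80 and 0.69.

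**Figure D3:**
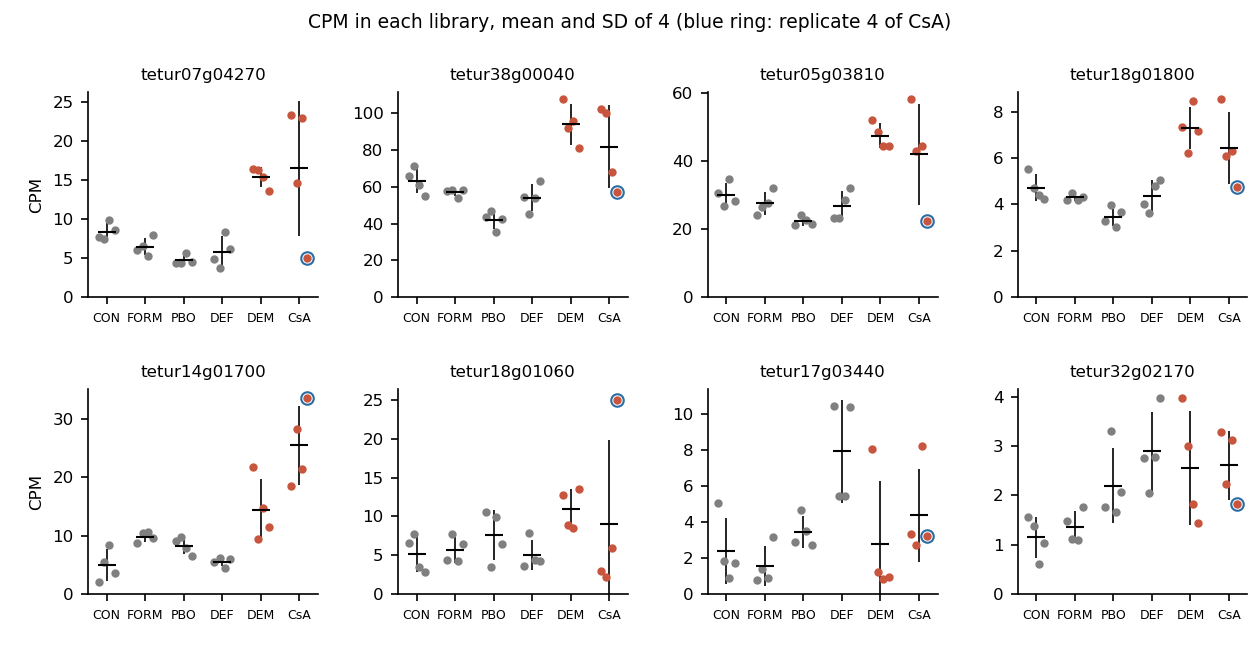
CPM of 8 members in each of the 24 libraries, with points for libraries, a bar for the mean and a line for the SD of the 4 replicates. The blue ring marks CsA replicate 4, which lies near FORM in tetur07g04270, tetur38g00040 and tetur05g03810 and is the highest CsA library in tetur14g01700 and tetur18g01060, while DEM replicate 1 alone is high in tetur17g03440.

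The 5 members with the highest FORM level rested on the most reads. Besides tetur38g00040 these were tetur30g01510, tetur08g07130, tetur01g04250 and tetur04g07920, which have no description. tetur30g01510 measured 74.4, 74.1, 69.6 and 80.1 CPM in FORM and 131, 111, 119.5 and 105 CPM in DEM. In CsA it measured 132, 130.3, 97.8 and 71.6 CPM, with replicate 4 in the FORM range. tetur08g07130 measured 61.1, 57.7, 47.7 and 62.1 CPM in FORM and 141, 106, 96.0 and 79.1 CPM in DEM. In CsA it measured 128, 115, 85.9 and 59.5 CPM, and its ratios of 0.88 and 0.76 were the largest of these 5. tetur04g07920 measured between 28.1 and 40.4 CPM in FORM and between 46.6 and 62.8 CPM in DEM. For tetur01g04250 DEM replicate 1 measured 101 CPM and the other 3 DEM libraries 53.0 to 58.7 CPM, less than the 62.0 CPM of FORM replicate 4. Its DEM ratio was 0.57, and 0.31 without DEM replicate 1.

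tetur238g00010, the only gene of its scaffold above the FORM minimum, was one of the members with the largest ratios, 0.87 with DEM and 0.80 with CsA. It measured 22.7, 20.8, 18.7 and 37.4 CPM in FORM and 61.9, 41.1, 40.3 and 40.8 CPM in DEM. CsA gave 49.3, 49.0, 46.3 and 30.3 CPM. Every DEM library was above FORM, and CsA replicate 4 was not. The 36 members outside the rule for named genes had FORM means from 1.08 to 28.8 CPM, DEM ratios from 0.52 to 0.84 and CsA ratios from 0.50 to 0.89.

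A separate pattern was seen in 7 members, chosen after their values were seen: tetur02g13050, tetur03g08030, tetur07g03400, tetur10g00730, tetur12g00570, tetur17g03440 and tetur28g92005. In each, FORM replicate 4, DEM replicate 1 and CsA replicate 3 were at least 1.5 times the mean of the other 3 libraries of their group. This held for 57 of the 11525 genes, or 0.495%. tetur17g03440 measured 0.794, 1.40, 0.892 and 3.18 CPM in FORM. Its DEM libraries measured 8.05, 1.20, 0.824 and 0.915 CPM, so that all but replicate 1 lay in the FORM range. Its CsA libraries measured 3.34, 2.69, 8.18 and 3.20 CPM. For tetur02g13050 the values were 0.454, 0.642, 0.755 and 3.11 CPM in FORM, 6.19, 1.74, 1.10 and 1.32 CPM in DEM and 2.00, 2.10, 5.89 and 2.01 CPM in CsA.

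Without DEM replicate 1, the DEM ratio of these 7 ranged from -0.48 to 0.12, and none met the rule. Without CsA replicate 3 their CsA ratio ranged from 0.17 to 0.79. CON replicate 1 was high as well, with a library median of 1.04 and 6 of the 7 above the FORM mean. That median was above those of DEF replicates 2 and 3, which were 0.97 and 0.78. DEF and PBO means of these genes were also above FORM. Their ratios ranged from 0.76 to 2.02 with DEF and from 0.20 to 0.93 with PBO, and 6 of the 7 PBO ratios of at least 0.5 among all members belonged to them. The other 58 members had library medians of 0.81, 0.64, 0.68 and 0.51 in DEM and of 0.94, 0.69, 0.70 and -0.06 in CsA. The rule and the setting apart of the 7 used these libraries, so these medians are descriptions. Their PBO mean was below the FORM mean in 49 of 58.

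**Figure D4:**
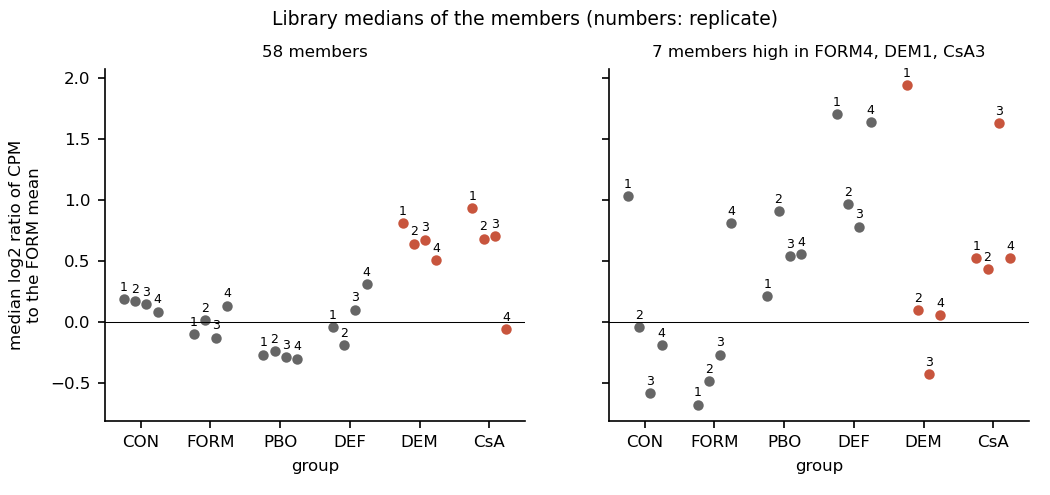
Median log2 ratio of CPM to the FORM mean in each library (y axis) by group (x axis), for 58 members (left) and for the 7 members with high values in FORM4, DEM1 and CsA3 (right); numbers are replicates. On the left all 4 DEM libraries and 3 of 4 CsA libraries lie above the control libraries. On the right 1 library sets the DEM mean, and CON1 (1.04) and FORM4 (0.81) lie within the range of the DEF libraries (0.78 to 1.71).

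The comparison of DEF with CON took its 2 group means from libraries that the rule did not use. Its edgeR fit, however, estimated the spread from all 6 groups, which include the libraries of the rule. The comparison asked whether the members also differed between DEF and unsprayed mites. CON mites received neither spray nor solvent, so an effect of these cannot be told apart from one of DEF here. The median and the direction of the members were close to those of all genes, and 4 single members were called. The median ratio of DEF to CON was -0.06 in the members and -0.04 in all 11525 genes. The DEF mean was above the CON mean in 24 of 65 members, against 41.8% of all genes. By edgeR's quasi-likelihood test 4 of 65 members were called, 2 higher and 2 lower, while 4.37% of 12736 genes were called (2.47% higher and 1.89% lower). At an unadjusted p under 0.05 there were 11 members, against 29.2% of genes. Every DEF library lay above every CON library in 4 members, against 8.75% of genes, and below in 3 members, against 8.49%.

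tetur32g02170 was higher in DEF than in CON. It measured 1.56, 1.38, 0.610 and 1.03 CPM in CON and 2.76, 2.05, 2.78 and 3.98 CPM in DEF, without overlap. The log2 fold change was 1.33 (SE 0.34, edgeR adjusted p = 0.0112 after Benjamini-Hochberg). tetur17g03440 was also higher, with 5.02, 1.84, 0.881 and 1.73 CPM in CON and 10.4, 5.40, 5.42 and 10.3 CPM in DEF. Its log2 fold change was 1.72 (SE 0.58, edgeR adjusted p = 0.0493), with CON replicate 1 close to the lower DEF libraries. Over FORM the DEF ratios of tetur32g02170 and tetur17g03440 were 0.87 and 2.02, against 1.04 and 1.55 over CON.

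The other 2 called members were lower in DEF than in CON. tetur07g02520 measured 3.40, 3.62, 3.86 and 2.51 CPM in CON and 1.32, 1.78, 1.93 and 2.31 CPM in DEF, a log2 fold change of -0.84 (SE 0.26, edgeR adjusted p = 0.0302). tetur22g00590 measured 1.67, 1.26, 1.83 and 1.22 CPM in CON and 0.539, 0.479, 0.856 and 0.868 CPM in DEF, a log2 fold change of -1.10 (SE 0.31, edgeR adjusted p = 0.0192). Neither pair of groups overlapped, and both genes were higher in DEM than in FORM, with ratios of 0.68 and 0.56. Their DEF ratios over FORM, the sprayed control, were -0.41 and -0.50, against -0.72 and -0.75 over CON. These 4 calls depended on single libraries. Without CON replicate 3 no member was called by edgeR, although 4 had been, and 2.61% of genes were called. Without CON replicate 1 there were 8 members and 5.6% of genes. Without CON replicate 2, or without DEF replicate 1, 3 or 4, there were 2, 1, 2 and 2 members, with 3.09%, 2.96%, 4.02% and 3.6% of genes. tetur32g02170 was lost without CON replicate 3 or DEF replicate 4 (edgeR adjusted p = 0.054 and 0.0514), and its log2 fold change stayed between 1.11 and 1.53. tetur22g00590 was lost without CON replicate 3 or DEF replicate 1 or 2, with log2 fold changes from -1.24 to -0.97. tetur07g02520 was lost without CON replicate 2 or 3 or DEF replicate 1, 2 or 3 (-0.98 to -0.71), and tetur17g03440 remained called only without CON replicate 1 or DEF replicate 2 (1.44 to 2.43).

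With PBO the members lay somewhat lower than FORM. The PBO mean was below the FORM mean in 49 of 65 members, against 46.9% of all genes, and the median ratio was -0.25, against 0.01. The rule removed genes at or below -0.5, so the low end was fixed by it. Every PBO library lay below every FORM library in 13 members, against 8.82% of genes. Among these, tetur38g00040 measured 43.4, 46.7, 35.3 and 42.4 CPM in PBO, and tetur30g01510 measured 54.4, 56.9, 48.5 and 51.1 CPM. These genes were thus below FORM with PBO in every library and above it with DEM in every library.

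The members also stood above the unsprayed mites, with smaller ratios. Over CON the median ratio was 0.55 with DEM and 0.43 with CsA. Both ratios were above 0 in all 65 members, against 27.5% of all genes, and the smallest was 0.0005, for tetur12g00570 with DEM. Both were at least 0.5 in 20 members, against 0.928% of all genes. Every DEM library was above every CON library in 40 members, against 6.51% of genes. For CsA this held in 6 members, against 2.66%, and in 46 members without replicate 4, against 8.2%. The CON mean was above the FORM mean in 53 of 65 members, but this was so in 75.1% of all genes as well. The DEM and CsA libraries are those that chose the members, so these counts are descriptions.

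Genes of related description lay on both sides of the PBO limit. Of 28 described chromatin and transcription genes above the FORM minimum, 12 had DEM and CsA ratios of at least 0.5. Of these, 9 had a PBO ratio at or below -0.5, 2 met every limit but are left out by name, and tetur38g00040 was the only member. Of 28 signalling genes, 9 passed both limits, 5 of them with the low PBO ratio and 4 as members. All 5 cuticle and matrix genes and all 3 RNA binding genes that passed both limits had the low PBO ratio. No member came from the listed 19 P450, 14 UDP-glycosyltransferase, 6 glutathione S-transferase, 4 esterase or 3 ABC transporter genes above the FORM minimum. Members made up 0.564% of the 11525 genes, and 0 in lists this short is near that share. Among the P450 genes, 1 passed the DEM and CsA limits and had a PBO ratio at or below -0.5. The median DEM and CsA ratios were -0.48 and -0.72 for the glutathione S-transferases and 0.24 and 0.34 for the ABC transporters. Of 3 calcineurin genes, a CsA target in vertebrates, 2 passed the FORM minimum and none was a member. Neither of 2 genes listed as CncC, the transcription factor of oxidative stress defence in insects, was a member. The study did not find the CncC genes to respond, and it names the calcineurin genes from a sequence search. The other lists hold genes that the study found to respond in the same libraries.

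By their identifiers, which give the scaffold and the order of genes on it, 63 members were placed on 31 scaffolds. Scaffold 1 held 6 of them among 1009 genes above the FORM minimum, and scaffold 30 held 4 among 161. Members were rarely close neighbours. tetur07g04270 and tetur07g04280 had adjacent numbers, tetur03g05750 and tetur03g05800 were 3 genes apart, and tetur04g01930 and tetur04g02040 were 8 apart. The DEM and CsA ratios of tetur07g04280 were 0.61 and 0.53, well under the 1.20 and 1.29 of its neighbour. Beside tetur02g13050 lies tetur02g13040, an antigen B membrane protein, with ratios of 1.19 with DEF, 0.77 with PBO, 0.42 with DEM and 0.43 with CsA. Its FORM mean of 0.677 CPM is under the minimum of the rule. Beside tetur10g00730 lies tetur10g00740, similar to a lipase, with ratios of 1.10 with DEF, 1.08 with PBO, 0.11 with DEM and -0.07 with CsA. Described genes near other members differed from these. tetur30g01490, near tetur30g01510, had a DEM ratio of -1.09, and tetur25g01760, near tetur25g01780, had ratios of 0.64 with DEM and -0.56 with PBO.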

How the data were processed

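Per the labels and the study's methods, paired strand-specific reads were checked with FastQC 0.11.4, aligned with STAR 2.5.0a, sorted with SAMtools 0.1.19 and counted per gene with HTSeq 0.6.0. The genome build is not given in the sources used here. The deposited values are the authors' raw counts for 19087 genes in 24 libraries, of which 1831 genes had no count. Counts of any 2 replicates differed beyond counting error (chi-square over its degrees of freedom 3.47 to 54.1), and samples were grouped by their titles.

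CPM were computed on column sums. Tests were run in R 4.3.3 with edgeR 4.0.16 (quasi-likelihood test, TMM factors from 0.920 to 1.11, filterByExpr keeping 12736 genes and all 65 members, 1 mean per group over all 6 groups, biological coefficient of variation 9.80%). P-values were adjusted by Benjamini-Hochberg over all genes tested, and a call needed an adjusted p under 0.05 and a fold change of at least 1.5. limma 3.58.1 and DESeq2 1.42.0 served as alternatives. The pipeline was tested on simulated data. Alternatives covered the scaling, the filter, the pseudocount, the thresholds, the control group and the libraries left out.

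The members and gene lists were chosen with earlier results of these data known. Named members were the 10 with the largest smaller value of the DEM and CsA ratios, the 5 with the highest FORM mean, those described in the study's tables, those called between DEF and CON (26 in all) and those next to each limit, and further genes were chosen after their values were seen. Gene sequences were not used here.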

Additional observations from a re-analysis of the deposited data

Results flagged for a closer look

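Dixon's ratio was taken in 96 groups of 4 libraries. These were the 6 groups for the members' median, the 6 groups for each of 4 members called between DEF and CON, and FORM, DEM and CsA for each of 22 other named members. In all, 13 held 1 library whose gap to the nearest other, divided by the range of the group, was above Dixon's critical value for 4 values. None of the 6 groups for the members' median was among them. Chance flags about 1 in 20 groups, but all 13 lie in FORM, DEM or CsA, whose values chose the members, so the number is not compared with that rate. DEM replicate 1 was high for tetur01g04250 at 101 CPM (others 53.0 to 58.7), tetur02g13050 at 6.19 CPM (others 1.10 to 1.74), tetur17g03440 at 8.05 CPM (others 0.824 to 1.20) and tetur238g00010 at 61.9 CPM (others 40.3 to 41.1). CsA replicate 3 was high for tetur02g13050 at 5.89 CPM (others 2.00 to 2.10), tetur12g00570 at 11.5 CPM (others 2.40 to 3.13) and tetur17g03440 at 8.18 CPM (others 2.69 to 3.34). FORM replicate 4 was high for tetur02g13050 at 3.11 CPM (others 0.454 to 0.755) and tetur12g00570 at 2.70 CPM (others 0.794 to 1.03).

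CsA replicate 4 was low for tetur01g04250 at 46.2 CPM (others 73.4 to 77.5) and tetur238g00010 at 30.3 CPM (others 46.3 to 49.3), and high for the malate dehydrogenase tetur18g01060 at 25.1 CPM (others 2.23 to 5.89). DEM replicate 4 was high for tetur22g00590 at 2.63 CPM (others 1.65 to 1.80).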

How the results depend on the processing

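The rule gave 65 genes, and from 33 to 135 when 1 library was left out. It gave 24 genes with a pseudocount of 2, 24 with a FORM mean of at least 5 CPM, 123 without a FORM minimum, 30 with ratios of at least 1.5-fold, and 111 without DEM replicate 1 and CsA replicate 4, a setting chosen after seeing the data. TMM-scaled libraries gave 90 genes with 64 members, and CON in place of FORM gave 79 genes with 16 members.

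Between DEF and CON 4 members were called. Leaving out 1 library gave 0 to 8. A fit of DEF and CON alone, which takes the spread from these 2 groups, gave 6, with 510 of 12208 genes called. A filter of at least 10 counts in every library kept 56 members and gave 2, tetur07g02520 and tetur17g03440 (edgeR adjusted p = 0.0271 and 0.0494). That filter removed tetur22g00590 and tetur32g02170 before the test. A robust prior, chosen after seeing the data, gave 3, and tetur17g03440 then had an edgeR adjusted p of 0.0786 (DESeq2 adjusted p = 0.0669). For DEM against FORM 39 members were called, and 6 to 44 with 1 library left out. For CsA against FORM 16 were called, 2 to 55 with 1 library left out, 26 with DESeq2, which gave 23 members no adjusted p, 3 with limma-voom and 10 with a fit of both groups alone. The cause of these shifts was not tested.

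Same-numbered libraries correlated between 0.10 and 0.27 in DEF and CON, and between -0.25 and 0.22 in DEM and FORM, so the numbers were not taken to pair the samples. A fit with the replicate number as a block called 5 members between DEF and CON, 41 in DEM and 26 in CsA. The 4 members called between DEF and CON kept their direction in every setting in which they were tested. The DEM ratio of 3 members turned negative without DEM replicate 1 (tetur17g03440 -0.48, tetur07g03400 -0.36 and tetur10g00730 -0.06). The CsA ratio of tetur18g01060 turned to -0.56 without CsA replicate 4. The members' median log2 fold change of DEF over CON moved from -0.03 to 0.02 without DEF replicate 2. Members near 1 CPM rest on few reads, which limits their ratios.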
